A study of Mus musculus with 15 samples.

Results

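The genes described here are 10 genes that mark alveolar type 1 cells, *Ager*, *Hopx*, *Aqp5*, *Rtkn2*, *Pdpn*, *Cav1*, *Cldn18*, *Emp2*, *Gprc5a* and *Akap5*. They were taken by symbol from the 56748 genes of a count table, and all 10 were found. Poly(A) RNA had been sequenced from 15 libraries of wild-type male C57Bl/6 mice, 3 in each of 5 groups. Kidneys came from mice given vehicle (WTK, with no antibody named in the labels), folic acid and control IgG (IgGK), or folic acid and a leptin-neutralizing antibody (LepK). Lungs came from mice given bleomycin with control IgG (IgGL) or with the same leptin antibody (LepL), and no lung without bleomycin was analysed here. In the study's methods, folic acid was given at 200 mg/kg to mice of 10 to 12 weeks, antibody at 10 mg/kg was then given every other day for 21 days, and kidneys were taken on day 28. Bleomycin was given into the trachea at 1.5 units/kg to mice of 12 weeks, antibody was given for 14 days, and lungs were taken on day 14. Both agents injure the organ acutely and are used to bring on fibrosis. Total counts ran from 25913969 to 38924788 per library. The 3 IgGL libraries differed from one another more than those of the other groups did on the whole, with a chi-square statistic per gene of 39.4 to 87.4 between pairs.

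Alveolar type 1 cells are the very thin, flat cells across which oxygen and carbon dioxide pass between air and blood. They cover most of the alveolar surface, are easily lost in lung injury, and are replaced by alveolar type 2 cells, which make surfactant and pass through a keratin-rich transitional state before they flatten. The 10 genes encode parts of that flat cell: a surface receptor (*Ager*), membrane and water-channel proteins (*Pdpn*, *Emp2*, *Aqp5*), a caveolar coat (*Cav1*), a tight-junction claudin (*Cldn18*), signaling proteins (*Gprc5a*, *Akap5*, *Rtkn2*) and a nuclear cofactor (*Hopx*). Several of them are also made outside the lung, such as *Cav1* in endothelium and *Pdpn* in podocytes and lymphatic vessels.

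Sequences upstream of the genes were read from RefSeq's promoter windows of the mouse build GRCm38.p6, in which 8 of the 10 genes had an entry, with 11 windows between them. *Rtkn2* and *Gprc5a* had none. In each window the 250 bases before the start were searched on both strands for GGAATG, a core bound by TEAD factors, and for CTCAAG, a core bound by NKX2-1. Both factors are known regulators of alveolar type 1 cells. GGAATG was in 0 of the 11 windows and in 12.6% of all 32851 windows, and CTCAAG was in 1 of the 11 windows and in 13.3% of all windows. That window lay upstream of *Hopx*, at chr5:77115124-77115373 on the minus strand, and the match began 112 bases before the start. It is shown first below, with the match in capitals as it reads on the strand of the gene (the reverse complement of CTCAAG). The window of *Ager*, the gene with the highest level in lung, at chr17:34597600-34597849 on the plus strand, and that of *Pdpn*, the gene with the highest level in IgGK kidney, at chr4:143299565-143299814 on the minus strand, held neither core.
Hopx: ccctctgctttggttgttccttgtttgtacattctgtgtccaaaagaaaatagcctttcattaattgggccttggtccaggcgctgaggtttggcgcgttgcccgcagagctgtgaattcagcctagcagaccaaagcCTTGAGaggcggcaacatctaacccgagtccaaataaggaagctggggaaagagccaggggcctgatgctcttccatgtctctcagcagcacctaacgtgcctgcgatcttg
Ager: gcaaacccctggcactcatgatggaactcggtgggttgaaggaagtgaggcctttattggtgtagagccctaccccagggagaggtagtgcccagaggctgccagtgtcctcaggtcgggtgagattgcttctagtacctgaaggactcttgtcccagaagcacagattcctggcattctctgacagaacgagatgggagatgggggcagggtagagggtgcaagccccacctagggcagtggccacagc
Pdpn: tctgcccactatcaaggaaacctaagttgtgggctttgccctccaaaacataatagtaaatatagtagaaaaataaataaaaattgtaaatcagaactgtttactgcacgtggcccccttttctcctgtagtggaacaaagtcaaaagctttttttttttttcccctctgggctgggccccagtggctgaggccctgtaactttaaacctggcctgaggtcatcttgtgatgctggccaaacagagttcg
The base composition of the windows was spread widely. G and C made up 43.2% of the *Pdpn* window, which held 2 CpG dinucleotides, and 78.4% of the *Aqp5* window, which held 38, against medians of 52.4% and 6 over all windows. An annotated exon of *Aqp5* itself overlapped the *Aqp5* window, so that window is not upstream sequence only. Exons of *Hopx* and *Hopxos* overlapped the *Hopx* window that is not shown. The *Ager* window held 3 CpG dinucleotides at 57.6% G and C. A match or its absence describes these letters only.

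All 10 genes were far more abundant in lung than in kidney. Levels of different genes are compared here as FPKM, read counts scaled by gene length and by library total, as deposited by the authors. In the IgGL libraries *Ager*, the receptor for advanced glycation end products (RAGE), had the highest level, at 603 ± 80.9 FPKM (SD, n = 3). Next came *Gprc5a*, an orphan receptor induced by retinoic acid, at 340 ± 45.1, and *Cav1*, the main caveolar coat protein, at 157 ± 9.68. *Hopx*, *Emp2*, *Cldn18*, *Pdpn* and *Aqp5* followed with means of 125 to 91.8, and their libraries overlapped, so no order among these 5 is given. *Akap5*, a scaffold that anchors protein kinase A, had 29.5 ± 10.1, and *Rtkn2* had the lowest level, at 8.95 ± 6.29, with no overlap between these 2 genes. *Ager* alone supplied 34.5% to 39.7% of the summed FPKM of the 10 genes in the lung libraries and 4.17% to 7.63% in the kidney libraries.

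In kidney the order of the genes was another one. *Pdpn*, which encodes podoplanin, a mucin-like surface protein, had the highest level in IgGK, at 19.6 ± 0.390 FPKM, ahead of *Cav1* at 12.3 ± 1.25 and *Gprc5a* at 9.32 ± 0.703. *Emp2*, a tetraspan membrane protein, followed at 4.15 ± 0.624, then *Ager* at 2.87 ± 0.361 and *Hopx* at 2.24 ± 0.418, whose libraries did not overlap by a narrow margin (lowest *Ager* library 2.52, highest *Hopx* library 2.49). *Aqp5*, *Akap5* and *Cldn18* were each under 0.3 FPKM on average, and *Rtkn2* had 26 reads in the 3 IgGK libraries together. In vehicle kidney *Cav1* was the highest, at 10.8 ± 1.15 FPKM, and *Pdpn* had 2.54 ± 0.585.

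**Figure D1:**
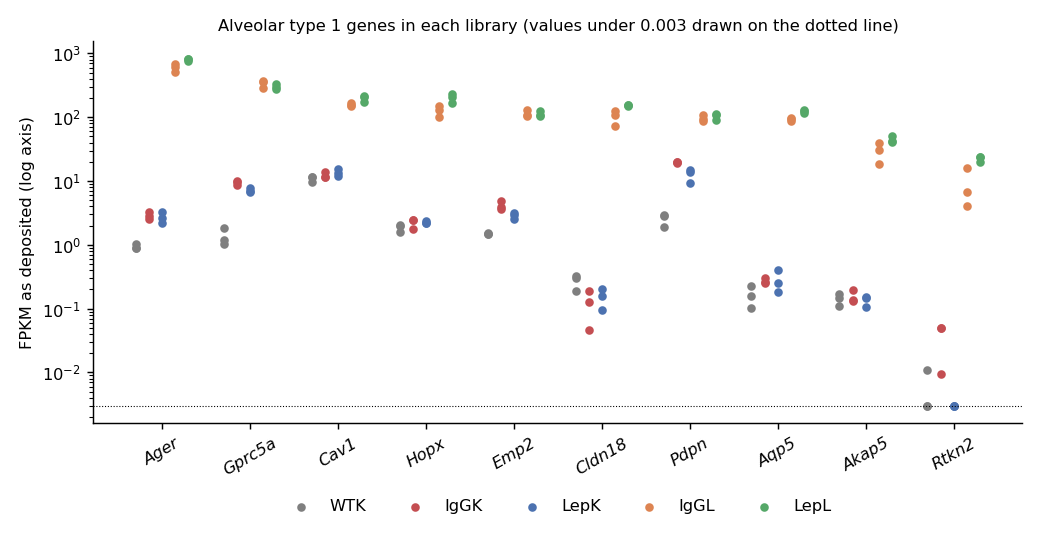
FPKM of the 10 genes in each of the 15 libraries on a log axis, 1 point per library, with genes in the order of their mean in IgGL; points on the dotted line are libraries under 0.003 FPKM. Every gene sat higher in the 6 lung libraries than in the 9 kidney libraries, by the narrowest margin for *Pdpn*.

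The organ difference was tested between IgGL and IgGK, the 2 injured groups given control IgG. With edgeR's quasi-likelihood test, a gene was called where its log2 fold change exceeded 0.5 in size with an adjusted p under 0.05. By this rule 10 of 10 genes were higher in IgGL, against 24.2% of the 21488 genes tested. The genes were chosen as markers of a lung cell type, so this count carries no weight as a test and describes the sizes only. *Rtkn2*, with 26 reads in the IgGK libraries together, passed the filter here through its lung reads only. *Cldn18*, a tight-junction claudin of lung and stomach, had the widest log2 difference, 9.73 (SE 0.35, adjusted p = 4.95e-11), and *Aqp5*, a water channel, had 8.41 (SE 0.18, adjusted p = 8.71e-13). *Pdpn* had the smallest, 2.28 (SE 0.15, adjusted p = 1.22e-08), followed by *Cav1* at 3.66 and *Emp2* at 4.78. The organ, the injuring agent and the day of collection changed together between these groups and cannot be told apart. The kidney libraries held almost no RNA of the surfactant and club cell genes that are most abundant in lung. *Sftpc*, at a mean of 9703 normalized CPM in lung, had 0 reads in WTK, 4 in IgGK and 0 in LepK, and *Sftpa1* had 0 reads in each group, while *Ager* had 186, 767 and 616.

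In bleomycin lung the question was whether neutralizing leptin changed the alveolar type 1 genes. 0 of the 10 passed the test between LepL and IgGL in edgeR's fit of the 6 lung libraries, where 4.14% of 19617 genes tested were called in either direction. The values nevertheless lay apart for 7 genes, *Ager*, *Hopx*, *Aqp5*, *Rtkn2*, *Cav1*, *Cldn18* and *Akap5*, whose 3 LepL libraries were each above the 3 IgGL libraries. That pattern was found for 16.0% of all genes tested. The same 7 genes had an unadjusted p under 0.05, as 27.3% of all genes did. DESeq2 called 2 of the 10 higher, *Hopx* and *Cldn18* (background 12%), and limma-voom called 0 (background 3.85%). The median log2 fold change of the 10 genes was 0.39, against 0.00 for all genes. In whole-organ RNA, a loss of cells of a type and less RNA per cell cannot be told apart.

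*Ager* had 2078, 1932 and 1639 normalized CPM (reads scaled to library totals and TMM factors within the organ) in IgGL and 2356, 2529 and 2474 in LepL. Its log2 fold change was 0.38 (SE 0.14, adjusted p = 0.126, edgeR), a 1.30-fold difference whose interval on the log2 scale ran from 0.11 to 0.66. *Hopx*, a homeodomain-only protein that binds no DNA itself, had 320.0, 283 and 226 normalized CPM in IgGL and 356, 494 and 455 in LepL. The difference was 1.57-fold (log2 0.65, SE 0.17, adjusted p = 0.0578, edgeR). In both genes the lowest LepL library stood above the highest IgGL library, by a margin smaller than the range within IgGL.

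*Aqp5* varied little within each group, with 359.7, 352 and 332 normalized CPM in IgGL and 456, 441 and 474 in LepL. Its log2 fold change was 0.39 (SE 0.10, adjusted p = 0.0611, edgeR), and the gap between the groups was wider than the spread within either. *Rtkn2* was the most variable, with 128, 55.2 and 33.1 normalized CPM in IgGL and 156, 189 and 188 in LepL. The 3 LepL libraries lay close together and the 3 IgGL libraries far apart. The difference in *Rtkn2*, 2.47-fold (log2 1.30, SE 0.40, adjusted p = 0.0838, edgeR), was the largest of the 10 and had the largest error. It ran from 0.96 without IgGL replicate 3 to 2.01 without IgGL replicate 1 on the log2 scale, and in the second of these fits it was called (adjusted p = 0.000928).

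*Cldn18* had 807, 701 and 479 normalized CPM in IgGL and 998, 1001 and 940.2 in LepL, for a log2 difference of 0.56 (SE 0.18, adjusted p = 0.0959, edgeR). *Akap5* had 379.7, 309 and 189.7 in IgGL and 416, 490.3 and 403 in LepL, for a log2 difference of 0.57 (SE 0.23, adjusted p = 0.144). Both genes followed one pattern of libraries, with IgGL replicate 3 lowest by a clear step and the 3 LepL libraries close to one another. *Cav1* had 824, 785 and 753 in IgGL and 859.5, 1076 and 1037 in LepL, for a log2 difference of 0.33 (SE 0.13, adjusted p = 0.143). Its LepL replicate 1 lay only just above the IgGL libraries.

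The other 3 genes overlapped between the groups. *Pdpn* had 278, 248 and 234 normalized CPM in IgGL and 277, 289 and 235 in LepL, for a log2 difference of 0.08 with an interval of -0.16 to 0.32. *Emp2* had 1366, 1655 and 1334 in IgGL and 1351, 1550 and 1278 in LepL, for a log2 difference of -0.06 with an interval of -0.34 to 0.22. *Gprc5a* had the lowest fold change of the 10, with a mean of 892 ± 83.9 normalized CPM in LepL against 1035 ± 151 in IgGL, and a log2 value of -0.21 (interval -0.50 to 0.08). Adjusted p-values of these 3 genes were 0.715, 0.824 and 0.384 (edgeR). The intervals of *Pdpn* and *Emp2* lay within 0.35 of 0 on the log2 scale.

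**Figure D2:**
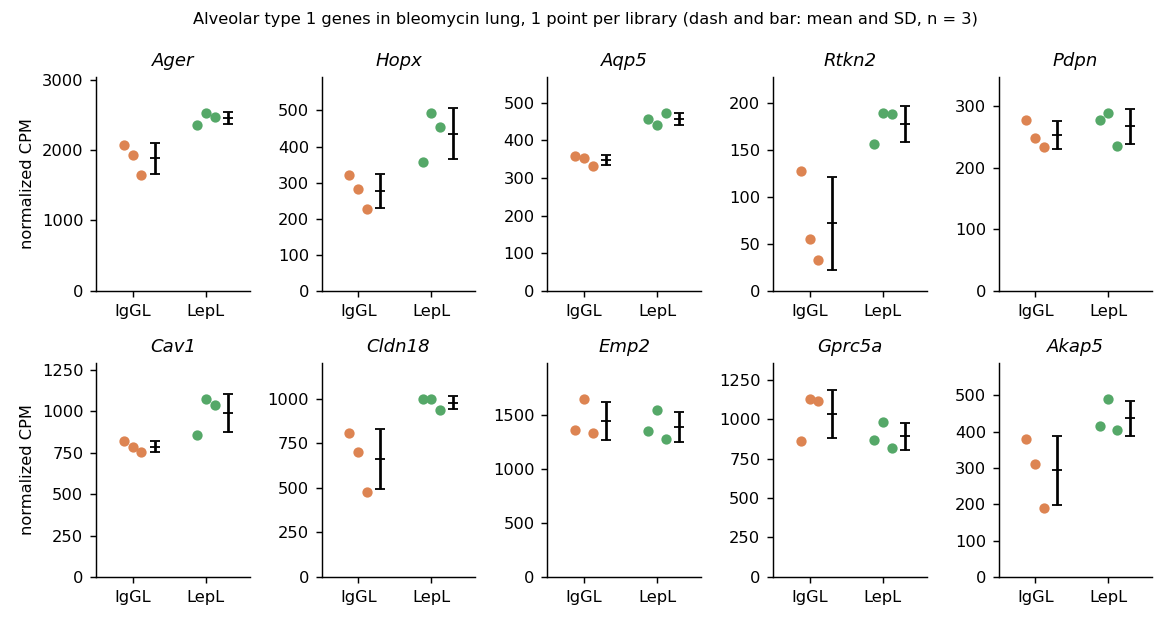
Normalized CPM of each gene in the 3 IgGL and 3 LepL libraries, 1 point per library in replicate order, with the mean and SD beside them; axes start at 0. In 7 panels the LepL points all lie above the IgGL points, and in those of *Pdpn*, *Emp2* and *Gprc5a* the groups overlap.

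IgGL replicate 3 had the lowest value of its group for 9 of the 10 genes, the exception being *Gprc5a*. The summed level of the 10 genes was 7401, 7452 and 6335 normalized CPM in IgGL and 8097, 9044 and 8305 in LepL. The same IgGL library also had the lowest sum of the alveolar type 2 genes of its group, 7700, against 14030 and 9660 in replicates 1 and 2, and the highest sum of the neutrophil genes, 411, against 172 and 199. Leaving out IgGL replicate 1 instead gave calls for 4 of the 10 genes, *Hopx*, *Rtkn2*, *Cldn18* and *Akap5*, with 17.3% of all genes called. Without IgGL replicate 3, or without any other single lung library, 0 of the 10 genes were called, and at most 22 genes of the whole table.

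Other genes of the alveolar epithelium were taken from lists. Of 15 further alveolar type 1 genes, 13 had a higher fitted value in LepL, and 1 was called higher and 1 lower, where 4.14% of all genes were called in either direction. The median log2 fold change was 0.51. The gene called higher was *Sema3e*, a secreted semaphorin, at 153 against 82.1 normalized CPM (log2 0.90, SE 0.20, adjusted p = 0.0471, edgeR). The gene called lower was *Fstl3*, an extracellular antagonist of activins, at 11.7 against 23.5 (log2 -1.0, SE 0.19, adjusted p = 0.0354). Not called were *Clic5* at 0.40, *Spock2* at 0.51, *Igfbp2* at 0.85 and *Cyp2b10* at 0.77, the last with an adjusted p of 0.0506. Nor were *Lmo7* at 0.06, *Agrn* at 0.005 and *Krt7* at -0.31, the other gene of the list with a negative value. The basement membrane chains *Col4a3* and *Col4a4* had 0.27 and 0.36, and *Vegfa*, which these cells send to the capillaries, had 0.62 (adjusted p = 0.0796, edgeR). The sum of this list ran from 4349 to 6971 normalized CPM in IgGL and from 7087 to 8114 in LepL.

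Alveolar type 2 genes, which include those of surfactant and its storage, all had a higher fitted value in LepL. Of 10 genes 6 were called higher, against 4.14% of all genes called in either direction. The list median was 0.94 on the log2 scale. *Lamp3* had the largest log2 fold change, 1.61 (SE 0.34, adjusted p = 0.0395, edgeR), then *Sftpc* with 1.40 (SE 0.28, adjusted p = 0.0391). *Sftpd* at 0.62 and *Lpcat1* at 0.80 were the smallest of those called. Of the keratin-rich transitional genes 9 of 10 had a lower value in LepL, with a median of -0.55, and 1 was called, *Cldn4* (log2 -0.88, SE 0.21, adjusted p = 0.0493). *Krt8*, the keratin that names the state, had -0.50 (adjusted p = 0.157), and *Cdkn1a*, a cell cycle inhibitor, had -0.83 (adjusted p = 0.0694). The summed transitional genes were 1705, 2363 and 3043 normalized CPM in IgGL, with replicate 3 the highest, and 1729, 1573 and 1438 in LepL.

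*Nkx2-1*, a transcription factor needed by both alveolar cell types, was 1 of 10 regulators called, and it rose from 139 to 243 normalized CPM (log2 0.80, SE 0.17, adjusted p = 0.0395, edgeR). The Hippo pathway cofactors *Yap1* and *Wwtr1* had log2 fold changes of 0.06 and -0.07, while *Ccn2*, one of their known targets, had -0.70 (adjusted p = 0.0611). Among genes that work with the members, the RAGE ligand *S100a8* fell by 2.02 on the log2 scale (SE 0.43, adjusted p = 0.0403), and *S100a9* fell by 1.79 (SE 0.39, adjusted p = 0.0442). Both are also abundant in neutrophils, whose summed markers were 172 to 411 normalized CPM in IgGL and 63.2 to 103 in LepL. *Cavin2*, a partner of caveolin, had 0.93 (adjusted p = 0.0664) and *Cav2* had 0.32 (adjusted p = 0.116). Of 11 claudin and tight junction genes 1 was called, *Cldn4* again, and *Cldn3*, *Cldn7* and *Ocln* had 0.34, 0.41 and 0.39, with adjusted p-values of 0.0632 to 0.0786 (edgeR). *Cd44*, a binding partner of podoplanin, had -0.44 (adjusted p = 0.172), and *Aqp4*, another water channel, had 0.75 (adjusted p = 0.0890).

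**Figure D3:**
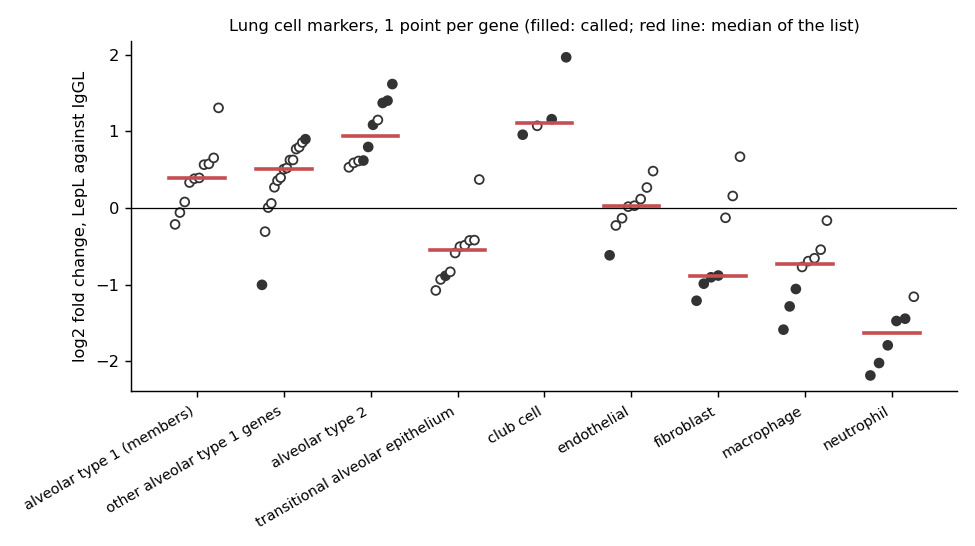
Log2 fold change of LepL against IgGL for genes of 9 lists of lung cell markers, 1 point per gene, filled where called by edgeR, with the median of each list as a red line. The 10 alveolar type 1 genes have a median of 0.39 with open points only, between the alveolar type 2 genes at 0.94 and the transitional genes at -0.55.

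Markers of other lung cells differed between the same libraries. Of 7 fibroblast genes 4 were called lower, of 8 macrophage genes 3 and of 6 neutrophil genes 5, against 4.14% of all genes called in either direction. A positive log2 fold change was found for 2 fibroblast, 0 macrophage and 0 neutrophil genes. The sum of the fibroblast genes was 5119 to 5916 normalized CPM in IgGL and 2352 to 3200 in LepL. Of 4 club cell genes 3 were called higher, and all 4 had a positive value. Endothelial cells also make *Cav1*. The summed endothelial genes were 2749 to 3011 in IgGL and 2371 to 2706 in LepL, but *Vwf*, the 1 gene of 8 called, made up most of that difference, at a mean of 834 against 544. The list had 5 of 8 genes with a positive log2 fold change, among them *Kdr* at 0.48 (adjusted p = 0.0546, edgeR), and a median of 0.02. Lymphatic vessels and mesothelium also make *Pdpn*: the lymphatic sum was 461 to 755 in IgGL and 298 to 401 in LepL, and the mesothelial sum was 389.9 to 538 and 527 to 577. Of 5 lymphatic genes 1 was called lower, *Flt4* at -0.59. Of 4 mesothelial genes 2 were called higher, *Upk3b* at 1.46 and *Lrrn4* at 0.91, while *Msln*, with the highest level of the list, had -0.27 and *Wt1* had 0.35. The part of cell composition in the values of the 10 genes was not tested.

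In kidney, 4 of the 10 genes were called higher with folic acid and control IgG than with vehicle, *Pdpn*, *Gprc5a*, *Ager* and *Emp2*. That count, from IgGK against WTK in edgeR's fit of the 9 kidney libraries, was out of 9 genes that passed the filter on low counts, and 21.7% of 19593 genes tested were called higher. *Rtkn2* did not pass. The labels name no antibody for WTK, so folic acid and control IgG may have changed together and cannot be told apart. *Pdpn* had 6.19, 4.11 and 6.46 normalized CPM in WTK and 44.4, 44.6 and 43.2 in IgGK, which is 7.88-fold (log2 2.98, SE 0.18, adjusted p = 1.04e-07, edgeR). *Gprc5a* had 2.58, 3.0 and 4.58 in WTK and 24.5, 25.6 and 22.1 in IgGK, which is 7.06-fold (log2 2.82, SE 0.17, adjusted p = 9.63e-08). The IgGK libraries of both genes lay within a narrow band, far from the vehicle kidneys.

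*Ager* had 2.66, 2.29 and 2.31 normalized CPM in WTK and 6.66, 8.60 and 7.63 in IgGK, which is 3.15-fold (log2 1.66, SE 0.20, adjusted p = 1.55e-05, edgeR). *Emp2* had 15.3, 15.4 and 16.1 in WTK and 38.7, 51.9 and 42.9 in IgGK, which is 2.85-fold (log2 1.51, SE 0.12, adjusted p = 4.72e-07). The groups did not overlap in either gene. These *Ager* levels in injured kidney stood on 202 to 301 reads per library and remained far under those of lung. Of the other genes, *Hopx* had a log2 fold change of 0.31 (adjusted p = 0.243), *Aqp5* 0.74 (SE 0.46, adjusted p = 0.20), *Cav1* 0.22 (adjusted p = 0.111) and *Akap5* 0.14 (adjusted p = 0.756). *Cldn18* was the single member with a negative value, -1.14 (SE 0.51, adjusted p = 0.0788), on 112 reads in WTK and 65 in IgGK. With scaling by library size alone, *Hopx*, *Aqp5* and *Cav1* were called higher as well, and the median of all genes moved from 0.04 to 0.48 on the log2 scale. Their log2 fold changes were then 0.75, 1.18 and 0.66.

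Mice given folic acid and the leptin antibody had less *Pdpn* and *Emp2* in kidney than those given control IgG. Of the 9 genes tested 2 were called lower, against 5.99% of all genes. *Pdpn* had 20.8, 30.3 and 33.4 normalized CPM in LepK, all under the 3 IgGK libraries. It fell by 0.65 on the log2 scale (SE 0.16, adjusted p = 0.0144, edgeR). *Emp2* had 26.7, 33.8 and 31.5 in LepK, and it fell by 0.54 (SE 0.11, adjusted p = 0.00548). LepK replicate 1 was the lowest library for both, and without it the log2 fold changes were -0.47 (adjusted p = 0.0388) for *Pdpn* and -0.44 (adjusted p = 0.0229) for *Emp2*, under the size limit, so that 0 of the genes were called. Without IgGK replicate 2, *Emp2* had -0.41 and 1 gene, *Pdpn*, was called.

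*Gprc5a* had 17.4, 17.2 and 19.8 normalized CPM in LepK, each under the IgGK libraries, but its log2 fold change of -0.41 (SE 0.15, adjusted p = 0.0767, edgeR) was not called. With scaling by library size alone it was called at -0.59, where the median of all genes was -0.19. *Ager* had 5.73, 8.52 and 6.94 in LepK and overlapped with IgGK, with a log2 fold change of -0.11 and an interval of -0.48 to 0.25. *Hopx* had -0.03 (interval -0.43 to 0.38) and *Cav1* 0.11 (interval -0.10 to 0.32). *Aqp5*, *Cldn18* and *Akap5*, on 65 to 131 reads per injured group, had intervals that reached 0.90 or more from 0 on one side. Reads of *Rtkn2* were 2, 12 and 12 in the IgGK libraries, 0 in every LepK library, and 0, 0 and 2 in WTK. Scaled to the total counts, IgGK was 8.60-fold higher than LepK with LepK set to a floor of 3 counts in the whole group. That value leaves out the counting error of the IgGK reads. IgGK was 13.6-fold higher than WTK (95% exact interval 3.41 to 118, counting error only).

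The 4 genes called higher in IgGK stayed above the vehicle kidneys with the leptin antibody. In LepK against WTK 4 of 9 genes were called higher, against 15.2% of all genes, and these were *Pdpn* (log2 2.33, SE 0.18), *Gprc5a* (2.41, SE 0.17), *Ager* (1.55, SE 0.20) and *Emp2* (0.97, SE 0.12), with adjusted p-values of 9.20e-05 or less (edgeR). The 3 kidney comparisons share libraries: the IgGK libraries enter the first and the second, and the WTK libraries the first and the last.

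**Figure D4:**
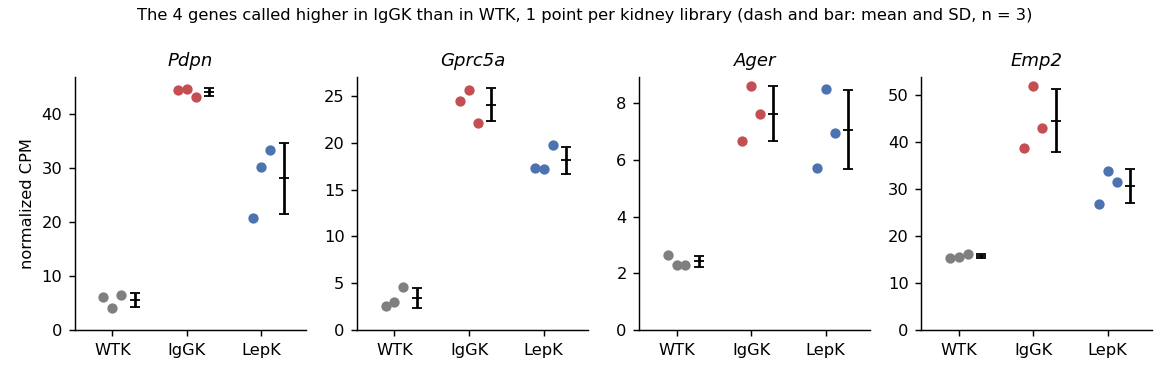
Normalized CPM of *Pdpn*, *Gprc5a*, *Ager* and *Emp2* in the 9 kidney libraries, 1 point per library in replicate order, with the mean and SD beside them; axes start at 0. Vehicle kidneys are lowest in each panel, and the LepK points of *Pdpn*, *Gprc5a* and *Emp2* lie below all IgGK points, while those of *Ager* overlap with them.

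Other genes of the lists moved in kidney in both directions. Of the 15 further alveolar type 1 genes, 5 were called higher and 7 lower in IgGK against WTK, where 37.3% of all genes were called in either direction. *Igfbp2*, an insulin-like growth factor binding protein, rose by 2.79 (SE 0.30, adjusted p = 5.53e-06, edgeR) and *Gramd2* by 1.70 (SE 0.21, adjusted p = 2.17e-05) on the log2 scale. *Cyp2b10* fell by 4.46 (SE 0.67, adjusted p = 0.000107) and *Sec14l3* fell by 1.06 (SE 0.39, adjusted p = 0.0371). Of the transitional epithelium genes 7 of 10 were called higher, among them *Krt19* at 3.39 (SE 0.24, adjusted p = 2.70e-07, edgeR) and *Areg* at 3.07 (SE 0.86, adjusted p = 0.00921). *Areg* was near the floor, at 0.10 normalized CPM in WTK and 0.90 in IgGK. Simple epithelial keratins and *Cdkn1a* are also made by injured tubules. In LepK against IgGK 4 of these 10 were called lower, against 10.4% of all genes called in either direction. They were *Cdkn1a* at -0.85 (SE 0.17, adjusted p = 0.00506, edgeR), *Plaur* at -0.73, *Krt19* at -0.71 and *Sfn* at -0.52.

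Partners of the members were also measured in kidney. *Cd44*, which binds podoplanin at the cell surface, rose in IgGK by 4.44 (SE 0.23, adjusted p = 3.66e-08, edgeR), from 3.82 to 83.8 normalized CPM. It fell in LepK by 0.80 (SE 0.18, adjusted p = 0.00895). *Msn*, which links podoplanin to the actin cortex, rose by 0.74 (SE 0.07, adjusted p = 2.65e-06, edgeR). *Cd44* and *Msn* were the 2 of 5 partners called in IgGK, near the share of all genes called in either direction, 37.3%. *Clec1b*, *Ezr* and *Lgals8* had -0.15, -0.07 and -0.29 and were not called. Of 5 RAGE ligands tested 3 were called higher in IgGK. The same 3 were called lower in LepK against IgGK, where 10.4% of all genes were called in either direction. *S100a6* had 15.4, 99.7 and 65.3 normalized CPM on average in WTK, IgGK and LepK, and *S100a8* and *S100a9* stayed under 3. Of the caveolar genes *Cavin1* (1.34), *Cavin3* (1.38) and *Ehd2* (1.14) rose in IgGK, while *Cav2* had 0.28. Of 11 claudin and tight junction genes 7 were called higher and 1 lower, *Cldn12*, by 0.79. *Cldn23* at 2.49 (SE 0.51, adjusted p = 0.00121, edgeR) and *Cldn3* at 1.97 (SE 0.10, adjusted p = 2.86e-08) were the largest. *Cldn23* was near the floor, at 0.24 normalized CPM in WTK and 1.40 in IgGK, and *Cldn3* had 10.8 and 42.3. Of 9 regulators tested 4 were called higher in IgGK, where 37.3% of all genes were called in either direction. *Ankrd1*, a target of YAP and TAZ, rose by 3.18 (SE 0.28, adjusted p = 1.12e-06) and *Gata6* by 2.83 (SE 0.32, adjusted p = 9.05e-06). *Klf5* and *Ccn1* were also called higher. *Ccn2*, another target of YAP and TAZ, had 0.02, and *Yap1* and *Wwtr1* had 0.16 and -0.17, and none of these was called. *Gata6* fell in LepK by 1.41 (SE 0.29, adjusted p = 0.00493). *Nkx2-1* had 0 reads in all kidney groups.

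Markers of kidney cells that also make podoplanin were measured beside these results. The summed podocyte genes were 228 to 240 normalized CPM in WTK, 236 to 287 in IgGK and 256 to 320 in LepK, with *Synpo* and *Wt1* called higher in IgGK, and none of the 6 genes was at 0. The lymphatic sum was 25.5 to 29.4, 26.1 to 30.1 and 31.3 to 38.4, and the mesothelial sum was 13.3 to 17.9, 30.1 to 32.0 and 26.9 to 30.4. Larger differences were found in the macrophage genes, at 150 to 167, 652 to 833 and 316 to 415, and in the fibroblast genes, at 151 to 202, 1067 to 1212 and 408 to 653. The proximal tubule genes went the other way, at 44600 to 46770, 10760 to 17370 and 23780 to 32550. The part of these cells in the levels of *Pdpn*, *Gprc5a*, *Ager* and *Emp2* was not tested.

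Whether the antibody acted differently on these genes in the 2 organs was tested as the difference of the effects in the 12 libraries of injured organs. At an adjusted p under 0.05 in edgeR, 0 of 10 genes were called, against 7.12% of 21488 genes. At an unadjusted p under 0.05 there were 5, *Ager*, *Hopx*, *Pdpn*, *Emp2* and *Rtkn2* (background 25.4%). DESeq2 called 2, *Pdpn* and *Rtkn2* (background 13.9%), and limma-voom called 1, *Pdpn* (background 5.75%). *Rtkn2* passed the filter here through its lung reads only, so its place in these counts is not read as a result. Kidney minus lung was -0.70 for *Pdpn* (SE 0.20, adjusted p = 0.0503, edgeR), -0.65 for *Hopx* (SE 0.24, adjusted p = 0.108), -0.47 for *Ager* (SE 0.20, adjusted p = 0.167) and -0.45 for *Emp2* (SE 0.19, adjusted p = 0.159). All 10 values were negative, that of *Rtkn2* included, with a median of -0.46 against -0.01 for all genes. *Rtkn2* had 0 reads in LepK, so its fitted value is not given and its sign carries no weight.

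**Figure D5:**
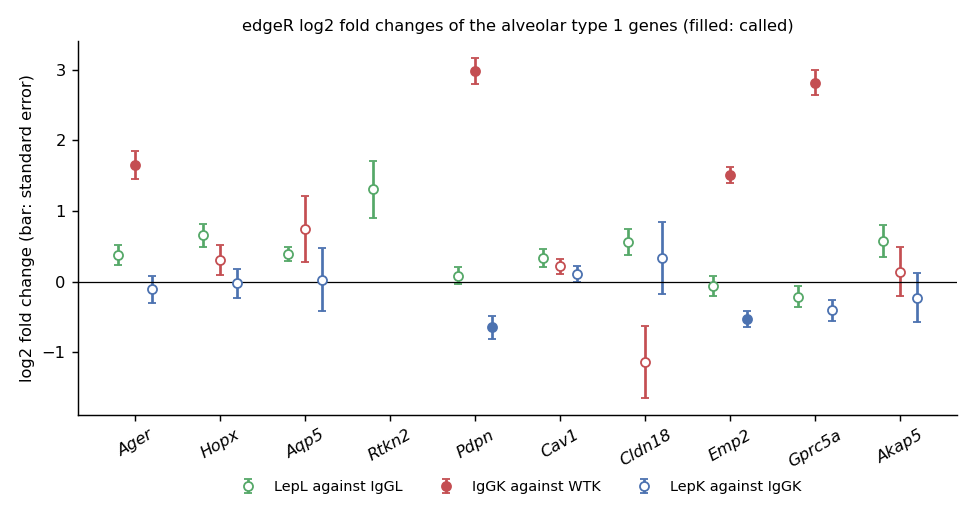
Log2 fold change with its standard error (edgeR) of each gene in 3 comparisons, with filled points for called genes; *Rtkn2* has a lung value only. The 4 filled points of IgGK against WTK lie between 1.51 and 2.98, the filled points of LepK against IgGK are *Pdpn* at -0.65 and *Emp2* at -0.54, and every lung point is open.

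The genes most like the group in lung were found by distance, as a description. Over the 6 lung libraries the median profile of the 10 genes, in log2 normalized CPM centred on each gene's mean, was compared with 14116 other genes. The 5 nearest were *Kat6a*, *Utrn*, *Kitl*, *Clic3* and *Fzd5*, at root mean square distances of 0.0259 to 0.0388, where a flat profile lay at 0.212. Their log2 fold changes in LepL against IgGL were 0.34 to 0.40. Of the 10 genes themselves *Ager* was nearest to the shared profile, at 0.0304, then *Aqp5* and *Cav1* at 0.0758 and 0.0774. *Rtkn2* lay farthest, at 0.748, followed by *Gprc5a* at 0.361.

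The count table places the genes on 10 chromosomal loci of GRCm39, each annotated as protein coding. *Ager* lies at chr17:34816836-34819910 on the plus strand, within the major histocompatibility region, and *Pdpn* at chr4:142994001-143026134 on the minus strand. *Hopx* lies at chr5:77234835-77262968 on the minus strand, *Emp2* at chr16:10099613-10131832 on the minus strand and *Gprc5a* at chr6:135042649-135061707 on the plus strand. The libraries did not keep the strand, so reads from an overlapping gene on the other strand could be counted on either. *Hopx*, *Rtkn2*, *Cav1* and *Cldn18* have such a neighbour. The neighbours had few reads over the 6 lung libraries: *Hopxos* had 348, beside 74450 for *Hopx*, *Gm15581* had 42 beside *Cav1*, *Gm16004* had 20 beside *Cldn18*, and *Gm16212* had 2 beside *Rtkn2*.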

How the data were processed

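The authors deposited a table of whole-number read counts per gene and library with FPKM values computed from them. Its group means, log2 fold changes and p-values, made by the authors, were not used. The study's methods state that the matrix came from Novogene. The submitters' processing notes name GRCm39 (mm39), DESeq and DESeq2, and the aligner and counter are not given in the sources used here. Libraries were non-directional poly(A) libraries with 25913969 to 38924788 counts. In most samples a description line that names a column gives another organ or treatment than the title, tissue and treatment labels, and it was not used. Columns were matched by a library code in the same description field, which matches the title in every sample.

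Low genes were removed by filterByExpr (at least 10 counts, total of 15), and counts were TMM-scaled and fitted by quasi-likelihood (edgeR 4.0.16, limma 3.58.1, DESeq2 1.42.0, R 4.3.3) in the 9 kidney, the 6 lung and, for organ differences, the 12 injured-organ libraries. Calls needed a log2 fold change beyond 0.5 in size and, over all genes tested, an adjusted p (Benjamini-Hochberg) under 0.05, or that p alone for the kidney minus lung difference. Standard errors are the log2 fold change over the square root of F. Intervals of log2 fold changes are the estimate plus or minus 1.96 standard errors. With 3 libraries a group they are narrower than 95% intervals of the test itself. *Cav1* in IgGK against WTK, with an interval of 0.01 to 0.43, had an unadjusted p of 0.067 (edgeR). Profile distances used a pseudocount of 0.5. The fits were tested on simulated data. Each library was taken as 1 mouse, which the labels do not state, so p-values measure the spread between libraries. No replicate pair agreed within counting noise. All 10 members are named, and of each list up to 2 called genes at either end. Some uncalled or further genes were chosen after their values were seen. The members and lists were chosen with earlier results of these data known. Scaling, filter, tool, threshold, block and left-out libraries were varied.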

Additional observations from a re-analysis of the deposited data

How the results depend on the processing

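With 3 libraries a group, calls near the threshold moved with the settings, and the cause was not tested. Of the genes called in LepL against IgGL (0), the count was 2 with DESeq2, 4 with no filter on low counts, 3 with all 15 libraries in one fit, and 0 to 4 without 1 library. In IgGK against WTK (4) it was 7 with library size scaling and 4 to 6 without 1 library. The counts over 4 without 1 library included *Rtkn2*, which had 2 reads in WTK and did not pass the filter in the main fit. In LepK against IgGK (2) it was 0 where a log2 size over 1 was asked and 0 to 3 without 1 library. Each count of 3 included *Rtkn2*, which had 0 reads in LepK, so it is not read as a further gene that changed. In LepK against WTK (4) it was 4 without any 1 library, 3 where a log2 size over 1 was asked, and 5 with no size limit or with library size scaling. For kidney minus lung (0) it was 3 with library size scaling, 1 with upper-quartile scaling, 2 with DESeq2, 1 with limma-voom, 4 with no filter, 1 with a mean of at least 1 CPM, 1 with all 15 libraries, and 0 to 3 without 1 library. The counts with DESeq2, with no filter and at the top of the last range include *Rtkn2*, which had 0 reads in LepK. Only uncalled genes changed sign. In LepK against IgGK these were *Aqp5* (-0.17 with library size scaling, -0.033 with limma-voom) and *Cav1* (-0.079 with library size scaling), and in LepK against WTK *Akap5* (0.17 with library size scaling). Without 1 library the log2 values ran from -0.14 to 0.044 for *Emp2* in lung and from -0.059 to 0.29 for *Akap5* in IgGK against WTK. In LepK against IgGK they ran from -0.27 to 0.022 for *Ager*, -0.16 to 0.064 for *Hopx*, -0.32 to 0.26 for *Aqp5* and -0.054 to 0.83 for *Cldn18*. They ran from -0.24 to 0.065 for *Akap5* in LepK against WTK and from -0.57 to 0.29 for *Cldn18* in kidney minus lung. Same-numbered lung libraries did not deviate together (correlations of -0.02, 0.07 and -0.06). In kidney, IgGK and LepK had 0.20, 0.18 and -0.04 for numbers 1, 2 and 3. Their crossed pairs of numbers 1 and 2 had -0.21 and -0.20. Same-numbered pairs with WTK lay between -0.03 and 0.04. Since not all same-numbered libraries deviated together, the numbers were not taken as pairs. With the replicate block, 0 of the members were called in lung, where 4 genes of the whole table were, the kidney counts stayed at 4, 2 and 4, and *Aqp5* had -0.036 in LepK against IgGK.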
